A study of Mus musculus with 8 samples.

Results

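The comparison was between 2 small-RNA libraries taken 20 h and 24 h after serum was returned to starved cells of NIH-3T3, a line of fibroblasts from mouse embryos that divides without limit. The labels call the cells at 20 h G2/M and those at 24 h G1, so the pair spans the passage through mitosis into the following G1 phase. These are 2 of the 8 libraries of the study used here. The libraries among the 8 that are not of this serum experiment are from an experiment on arrest by contact inhibition. They enter the scaling and the range of depth given below. The cells of both libraries had grown in medium with 10% serum, had been starved of serum for 48 h and had then received medium with 20% serum. The other serum libraries, at 0, 12 and 16 h (labelled G0, G1 and S), are given beside them as description. Each time has 1 library, so no difference below has a replicate check and none carries a p-value. The data are of this 1 cell line, and the phase names rest on the labels, since small RNAs hold no mRNA of a cyclin or mitotic kinase to check them against.

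A microRNA (miRNA) is a short RNA cut from 1 arm of a hairpin transcript, the 5p or the 3p arm, and loaded into an Argonaute protein. It pairs with messenger RNAs mainly through its seed, bases 2 to 8 from its 5′ end, and lowers their stability and translation. miRNAs with 1 seed are a family that shares predicted targets. Several families are known for their links to the cell cycle. let-7 represses Ras, Myc and cell cycle genes and marks differentiated cells. The miR-17 seed family represses the Cdk inhibitor p21, and its transcription is induced by Myc and E2F. The miR-16 family represses D-type and E-type cyclins. Most mature miRNAs are long-lived, so that transcription alone moves their level slowly.

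The members compared were the mature miRNA arms with at least 100 reads in either library, 131 of the 415 arms with a read in either and of 1723 in the reference used. They held 96.5% of miRNA reads at 20 h and 96.7% at 24 h. A ratio is the level at 24 h over that at 20 h, in TMM-scaled counts per 1000000 miRNA reads (CPM), with a 95% exact conditional binomial interval. Without molecular identifiers in the reads, an interval covers counting error only. An arm was counted as different when the ratio was at least 2-fold and the interval excluded 1. By that rule 5 arms were higher at 24 h (3.82% of the 131) and 6 were lower (4.58%).

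The mature sequences of those 11 arms and of the families described after them are shown because the seed, in capitals, sets which arms belong together. They are RefSeq sequences on mouse build GRCm38, written 5′ to 3′. First are the 5 arms higher at 24 h, each with a seed of its own.
miR-340-5p: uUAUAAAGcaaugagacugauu
miR-191-5p: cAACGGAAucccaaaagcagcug
miR-93-5p: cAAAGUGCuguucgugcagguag
miR-28a-3p: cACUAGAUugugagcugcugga
miR-7a-5p: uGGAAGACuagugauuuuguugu
The 6 arms lower at 24 h also had 6 seeds.
miR-574-3p: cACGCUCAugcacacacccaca
miR-34b-3p: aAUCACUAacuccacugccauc
miR-345-5p: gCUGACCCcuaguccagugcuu
miR-199a-5p: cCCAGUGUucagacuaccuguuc
miR-100-5p: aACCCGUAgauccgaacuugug
miR-369-5p: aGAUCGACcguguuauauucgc

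The let-7 family comes next, with 9 arms and 1 seed. Its members share bases 2 to 8 and differ elsewhere.
let-7a-5p: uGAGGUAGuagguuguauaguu
let-7b-5p: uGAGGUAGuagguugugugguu
let-7c-5p: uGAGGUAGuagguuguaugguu
let-7d-5p: aGAGGUAGuagguugcauaguu
let-7e-5p: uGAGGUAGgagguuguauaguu
let-7f-5p: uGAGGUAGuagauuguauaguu
let-7g-5p: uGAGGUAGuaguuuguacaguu
let-7i-5p: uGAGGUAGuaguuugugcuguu
miR-98-5p: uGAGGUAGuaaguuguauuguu
The other members of the miR-17 seed family share their seed with miR-93-5p above.
miR-17-5p: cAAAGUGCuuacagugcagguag
miR-20a-5p: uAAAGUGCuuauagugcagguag
miR-106b-5p: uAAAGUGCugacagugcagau
The miR-29 family has 3 arms with 1 seed.
miR-29a-3p: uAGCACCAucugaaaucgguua
miR-29b-3p: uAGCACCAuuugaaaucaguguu
miR-29c-3p: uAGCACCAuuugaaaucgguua

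Both libraries were shallow in miRNA. Of 7087714 reads at 20 h and 7449478 at 24 h, 93.9% and 94.8% were of an 18-nt or a 30-nt sequence taken to be marker oligonucleotides, whose origin was not checked against a protocol. This left 268567 inserts of 16 to 30 nt at 20 h and 205993 at 24 h, of which 184168 and 137851 were miRNA reads. The 24 h library had the fewest miRNA reads of the 8 (range 137851 to 893659). The fibroblast miRNA miR-199a-3p, made from mesenchymal miRNA genes and identical to miR-199b-3p, was abundant in both. It stood at 78285 CPM at 20 h and 72015 CPM at 24 h. The 7 arms of the mesenchymal list summed to 13.4% and 11.7% of miRNA reads. Some of them were low, such as miR-145a-5p at 0.312% and 0.197%. Of the 27 miRNAs listed for other cell types that matched the reference, 17 had 0 reads in both libraries, and the list summed to 0.243% of miRNA reads at 20 h and 0.413% at 24 h. The 5 blood miRNAs had 0 reads in both. miR-7a-5p, on the neural list, gave most of that list's reads.

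Most abundant miRNAs were at similar levels. The 10 arms with the highest mean level held 57.4% of miRNA reads at 20 h and 56.8% at 24 h, with ratios between 0.692 and 1.75 and none past 2-fold. miR-125b-5p, the homologue of lin-4, was the most abundant, at 119569 CPM at 20 h and 116013 CPM at 24 h. miR-21a-5p, which lies in the Vmp1 transcript and responds to growth factors, stood at 50082 and 50738 CPM, with a ratio of 1.01 (interval 0.985 to 1.04). The others of the 10 were miR-29a-3p, miR-199a-3p, miR-24-3p, miR-125a-5p, miR-26a-5p, let-7c-5p, let-7a-5p and let-7f-5p. Only miR-29a-3p and the 3 let-7 arms among them were more than 1.4-fold apart.

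Over all 131 arms the median log2 ratio was −0.09, with quartiles of −0.48 and 0.28, and 87 arms (66.4%) were within 1.5-fold. Counting error was small enough for the interval to exclude 1 in 94 arms (71.8%), 41 of them higher at 24 h (31.3%) and 53 lower (40.5%). DESeq2 size factors moved every log2 ratio up by 0.21, which put the median at 0.12 and gave 58 arms higher and 28 lower. With that scaling 7 arms were at least 2-fold higher and 3 lower, in place of 5 and 6. A statement on direction for arms close to 1 therefore rests on the scaling, and families are given below with both counts.

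**Figure D1:**
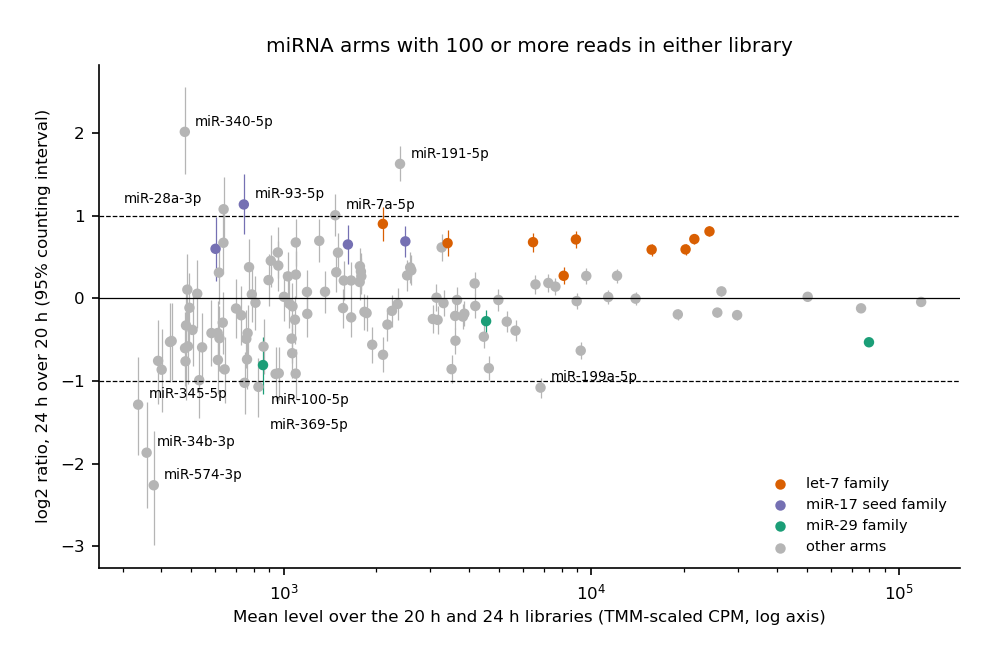
Each point is 1 of the 131 miRNA arms, with its mean level over both libraries in TMM-scaled CPM on a log axis and its log2 ratio of 24 h over 20 h with the 95% counting interval. Dashed lines mark 2-fold. The 9 let-7 arms and the 4 arms of the miR-17 seed family lie above 0, the 3 miR-29 arms lie below 0, and 10 of the 11 named arms past 2-fold have mean levels under 2500 CPM, the exception being miR-199a-5p.

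Among the arms higher at 24 h, miR-340-5p, encoded in an intron of the ubiquitin ligase gene Rnf130, had the largest ratio. It stood at 437, 310.2, 526, 189 and 766 CPM at 0, 12, 16, 20 and 24 h. Its 20 h level was the lowest and its 24 h level the highest of the 5 serum libraries, and the ratio was 4.04 (2.84 to 5.87) on 42 and 129 reads. miR-191-5p, made from an exon of the transcript 4833445I07Rik, stood at 2927, 2810.3, 2766, 1168 and 3611 CPM in the same order. Levels at 0, 12 and 16 h were close to each other, the 20 h library was low and the 24 h library was the highest. The ratio of 3.09 (2.67 to 3.59) rested on 259 and 608 reads, the most of the 5.

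miR-93-5p lies with miR-25 and miR-106b in Mcm7, the gene of a subunit of the replicative helicase. It stood at 683, 788, 1288, 464 and 1021 CPM and had a ratio of 2.20 (1.71 to 2.84). Here 20 h was the lowest library, and 24 h lay below 16 h. miR-28a-3p, from an intron of Lpp, stood at 453, 91.2, 855, 410.4 and 867 CPM, with a ratio of 2.11 (1.62 to 2.78). Its lowest library was 12 h and its levels at 16 and 24 h were close. miR-7a-5p, a regulator of growth-factor signalling, is made from a hairpin in Hnrnpk on chromosome 13 and another on chromosome 7. It was at 391 CPM at 0 h and had 0 reads at 12 h, where 3 counts would be 10.9 CPM. Its levels at 16, 20 and 24 h were 1379, 979 and 1966 CPM. Its ratio of 2.01 (1.69 to 2.39) was just past 2-fold. With TMM over these libraries alone, or with all inserts as the total, it was 1.99.

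Among the arms lower at 24 h, miR-574-3p, from an intron of Fam114a1, was furthest apart. It stood at 519, 599, 379.9, 627 and 131 CPM at 0, 12, 16, 20 and 24 h, on 139 reads at 20 h and 22 at 24 h, and the ratio was 0.208 (0.127 to 0.328), or 4.80-fold lower. The 24 h library lay below the other 4. miR-34b-3p, the 3p arm of a p53-induced miR-34 hairpin, has another seed than the 5p arms that form the miR-34 family. It stood at 276, 544, 269.9, 564 and 154 CPM, with a ratio of 0.274 (0.172 to 0.420). miR-345-5p, from an intron of Slc25a47, stood at 713, 288, 315, 478 and 196 CPM, with a ratio of 0.410 (0.269 to 0.611). For miR-34b-3p and miR-345-5p, 24 h was again the lowest of the serum libraries, but miR-345-5p was highest at 0 h.

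miR-199a-5p, the 5p partner of the abundant fibroblast miRNA miR-199a-3p, was the arm with the most reads among the 11. It stood at 15251, 9055, 13432, 9281 and 4388 CPM, on 2058 and 739 reads at 20 and 24 h. The ratio was 0.473 (0.434 to 0.515), and with its seed partner miR-199b-5p the sum had a ratio of 0.494 (0.456 to 0.535). The 20 h level was close to that at 12 h and the 24 h level lay below all others, while miR-199a-3p had a ratio of 0.920 (0.899 to 0.942). miR-100-5p, of the family of miR-99 that represses mTOR, stood at 913, 445, 893, 1123 and 534 CPM, with a ratio of 0.476 (0.370 to 0.608). miR-369-5p, of the imprinted Dlk1-Dio3 locus, stood at 171, 361, 301, 1001 and 493 CPM, with a ratio of 0.492 (0.378 to 0.636). For these last arms 20 h was the highest library, and 24 h was not the lowest. DESeq2 scaling took miR-199a-5p, miR-100-5p and miR-369-5p inside 2-fold, at ratios of 0.547, 0.550 and 0.569.

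**Figure D2:**
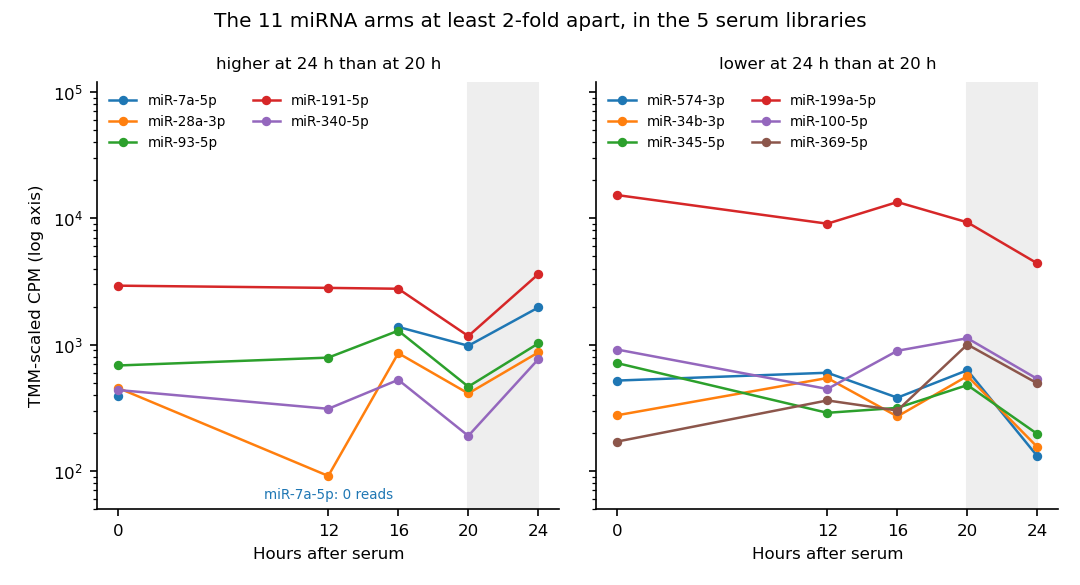
Levels of the 11 arms at least 2-fold apart, in TMM-scaled CPM on a log axis, against hours after serum, with 1 library per point and the interval from 20 to 24 h shaded. In the left panel the 20 h library is the lowest of 5 for 3 of 5 arms, and in the right panel the 24 h library is the lowest for 4 of 6. The arms were chosen by the difference between 20 and 24 h, which favours such extremes.

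Taken by library, the 20 h level was the lowest of the 5 serum libraries in 3 of the 5 arms higher at 24 h and the highest in 4 of the 6 arms lower at 24 h. The 24 h level was the highest in 4 of the 5 and the lowest in 4 of the 6. Over all 131 arms, 20 h was the lowest library in 15 and the highest in 22, and 24 h was the lowest in 17 and the highest in 19. The arms nearest the line from outside were miR-140-5p (0.503), miR-186-5p (0.531), miR-434-3p (0.532) and miR-15a-5p (0.533) on the lower side, and miR-98-5p (1.87) and let-7c-5p (1.75) on the higher side.

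The genome positions of the 11 arms, on GRCm38, were at separate loci. Of the higher arms, miR-340-5p is on chromosome 11 (50069720 to 50069741, plus strand), miR-191-5p on chromosome 9 (108568325 to 108568347, plus), miR-93-5p on chromosome 5 (138165574 to 138165596, minus, an exon of Mcm7) and miR-28a-3p on chromosome 16 (24827908 to 24827929, plus). miR-7a-5p is on chromosome 13 (58392841 to 58392863, minus) and chromosome 7 (78888295 to 78888317, plus). Of the lower arms, miR-574-3p is on chromosome 5 (64970364 to 64970385, plus) and miR-34b-3p on chromosome 9 (51103574 to 51103595, minus, in an intron of Btg4 on the other strand). miR-345-5p is on chromosome 12 (108836989 to 108837010, plus), as is miR-369-5p (109743431 to 109743452, plus, in an intron of the non-coding gene Mirg). miR-100-5p is on chromosome 9 (41531437 to 41531458, plus). miR-199a-5p is cut from an exon of Dnm3os on chromosome 1 (162217844 to 162217866, plus) and from a hairpin opposite an intron of Dnm2 on chromosome 9 (21496537 to 21496559, minus), which reads cannot tell apart.

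The let-7 family was higher at 24 h in all 9 of its arms, each with an interval above 1 under every scaling run. None was past 2-fold with TMM, and let-7c-5p (2.03) and miR-98-5p (2.16) were with DESeq2 scaling. Summed over the 9, let-7 made up 13.2%, 13.4%, 16.1%, 10.3% and 16.6% of miRNA reads at 0, 12, 16, 20 and 24 h. The 20 h library was the low one of the 5, and 24 h was close to 16 h. The summed ratio was 1.58 (1.55 to 1.61), and 1.83 with DESeq2 scaling. Member ratios ran from 1.21 (1.13 to 1.30) for let-7i-5p to 1.87 (1.62 to 2.16) for miR-98-5p, with a median log2 of 0.68, against −0.09 over all arms.

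let-7c-5p, the most abundant member, stood at 25118, 23618, 32826, 17559.9 and 30809 CPM, with a ratio of 1.75 (1.68 to 1.83). let-7a-5p stood at 17895, 16920.2, 25968, 16329 and 26859.5 CPM, with a ratio of 1.64 (1.57 to 1.72). For both, 20 h was the lowest library. The members lie in several transcripts: let-7a, let-7d and let-7f together on chromosome 13, let-7b and let-7c on chromosome 15, let-7c next to miR-99a on chromosome 16, let-7e next to miR-99b and miR-125a on chromosome 17, and let-7f and miR-98 in introns of Huwe1 on the X chromosome. With TMM scaling, neighbours of another seed were on the other side or close to 1. miR-99a-5p had a ratio of 0.663 (0.493 to 0.884), miR-99b-5p 0.879 (0.792 to 0.975) and miR-125a-5p 1.06 (1.02 to 1.10). The opposite strand of a let-7 hairpin, let-7d-3p, stood at 2575 and 3949 CPM, with a ratio of 1.53 (1.37 to 1.72), like let-7d-5p at 1.64 (1.53 to 1.76).

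Some let-7 members, such as let-7b-5p and let-7c-5p, differ only at a base in the second part of the sequence, and counting used the first 20 bases. Reads of the let-7 seed cut to 18 or 19 nt, which that rule leaves out, were 11.9% (11.5 to 12.3) of the family's reads of at least 18 nt at 20 h and 10.3% (9.91 to 10.7) at 24 h. In other arms such short reads were 1.44% and 1.30%. When they were counted too, by the first 18 bases (a setting chosen after seeing the data), the summed ratio was again 1.58 (1.55 to 1.61).

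The miR-17 seed family was the other family with every arm higher at 24 h under each scaling. miR-17-5p, the leading member of the Myc-induced miR-17 to miR-92 cluster, stood at 778, 1537, 4006, 1903 and 3070.2 CPM at 0, 12, 16, 20 and 24 h, with a ratio of 1.61 (1.42 to 1.84). miR-20a-5p of the same transcript had 1.52 (1.16 to 1.99), and miR-106b-5p of the Mcm7 cluster had 1.57 (1.34 to 1.85). Together with miR-93-5p the family made up 0.494% of miRNA reads at 20 h and 0.830% at 24 h, with a summed ratio of 1.66 (1.52 to 1.81). At 16 h, labelled S, it had been 0.989%, above both.

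With TMM scaling, arms cut from the same transcripts but with another seed were not on that side. miR-19b-3p, which is cut from the cluster of miR-17, stood at 767 CPM at 20 h and 457 CPM at 24 h, a ratio of 0.596 (0.450 to 0.785). miR-25-3p, from the Mcm7 cluster, stood at 952 and 570.1 CPM, a ratio of 0.599 (0.466 to 0.766). miR-92a-3p, which shares the seed of miR-25, had a ratio of 0.987 (0.901 to 1.08). With DESeq2 scaling miR-19b-3p and miR-25-3p also had intervals below 1, while miR-92a-3p moved to the higher side. miR-19b and miR-92a each have another hairpin on the X chromosome, so their reads are not from this cluster alone.

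The miR-29 family, known to repress collagens and Cdk6, was lower at 24 h in all 3 arms, and in 2 of 3 with DESeq2 scaling. Among families with every tested arm lower it was the largest, at 12.1% of miRNA reads at 20 h and 8.54% at 24 h, with 8.66%, 7.91% and 11.3% at 0, 12 and 16 h. miR-29a-3p stood at 58076, 55378, 95257, 94244 and 65209.9 CPM, with a ratio of 0.692 (0.676 to 0.708). The 16 and 20 h libraries were the high ones for this arm. miR-29b-3p had a ratio of 0.826 (0.750 to 0.909) and miR-29c-3p 0.571 (0.450 to 0.721).

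In the miR-16 family, which represses cyclins D1 and E1, 5 arms had enough reads and 4 were lower at 24 h, 2 with DESeq2 scaling, which put miR-16-5p on the higher side. miR-15a-5p stood at 1258 and 671 CPM, a ratio of 0.533 (0.425 to 0.666), while miR-16-5p, cut from the same transcript and from that of miR-15b, stood at 13934 and 13902 CPM, a ratio of 0.998 (0.945 to 1.05). miR-322-5p and miR-503-5p, from an X-linked cluster with miR-351, were lower at 24 h as well. miR-322-5p stood at 11789 CPM at 0 h, 5186 at 20 h and 3759 at 24 h, and miR-503-5p at 3393, 505 and 350.4 CPM. Their ratios were 0.725 (0.657 to 0.799) and 0.694 (0.497 to 0.959). The family as a whole made up 2.97% of miRNA reads at 20 h and 2.68% at 24 h, against 4.14% at 0 h.

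miRNAs grouped by their known cell cycle targets did not all lie on 1 side. Over all arms 31.3% were higher and 40.5% lower, and with DESeq2 scaling 58 and 28 of 131, beside which the counts of this and the next lists stand. Of 12 with enough reads that repress cyclins, Cdks or mitotic kinases, 2 were higher at 24 h (let-7a-5p and let-7b-5p) and 8 were lower, with a median log2 of −0.23. With DESeq2 scaling 3 were higher and 3 lower. Of 8 that repress Cdk inhibitors, 5 were higher and 2 lower, with a median log2 of 0.44, and 6 and 1 with DESeq2 scaling. The 5 were the 4 arms of the miR-17 seed family and miR-222-3p. miR-221-3p and miR-222-3p, which share a seed and a transcript and repress p27, were on opposite sides at 0.823 (0.752 to 0.899) and 1.21 (1.13 to 1.29). With DESeq2 scaling 1 of them was higher and 0 were lower, as the interval of miR-221-3p then held 1. Each list overlaps the families above and is not separate support for them.

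Fibroblast miRNAs were split as well. Of 7 arms of the mesenchymal list 2 were higher and 5 lower, and 3 and 3 with DESeq2 scaling. miR-214-3p, cut from the same transcript as miR-199a, stood at 1533 and 2007 CPM, a ratio of 1.31 (1.12 to 1.53). miR-143-3p was at 1.10 (1.03 to 1.19), while miR-145a-5p from its neighbouring hairpin was at 0.623 (0.537 to 0.721). miR-22-3p stood at 11224 and 7239 CPM, a ratio of 0.645 (0.602 to 0.691). The list summed to 13.4% of miRNA reads at 20 h and 11.7% at 24 h.

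In the 2 clusters that encode miR-23, miR-24 and miR-27, 4 of 5 arms were lower, and 1 with DESeq2 scaling, with a median log2 of −0.20. The miR-99 seed, with miR-99a-5p, miR-99b-5p and miR-100-5p, was lower in 3 of 3, and in 1 with DESeq2 scaling, with a median log2 of −0.59 and a summed ratio of 0.778 (0.711 to 0.852). The miRNAs of the Sfmbt2 intron had no arm with enough reads for a ratio of its own, and their summed reads, 299 at 20 h and 293 at 24 h, had a ratio of 1.29 (1.09 to 1.52). At the imprinted Dlk1-Dio3 locus, with 33 arms, 5 were higher, 12 lower and 16 had intervals that held 1. That order turned with DESeq2 scaling, to 13 higher and 5 lower, and the locus made up 7.88% and 7.82% of miRNA reads. Of 4 growth-factor or serum responsive arms, miR-155-5p was higher at 1.24 (1.05 to 1.47) and miR-31-5p lower at 0.747 (0.585 to 0.948). miR-21a-5p and miR-146b-5p had intervals that held 1. With DESeq2 scaling 2 of these 4 arms were higher and 0 lower. The level of miR-155-5p was 46.0 CPM at 0 h and 1321 CPM at 20 h.

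**Figure D3:**
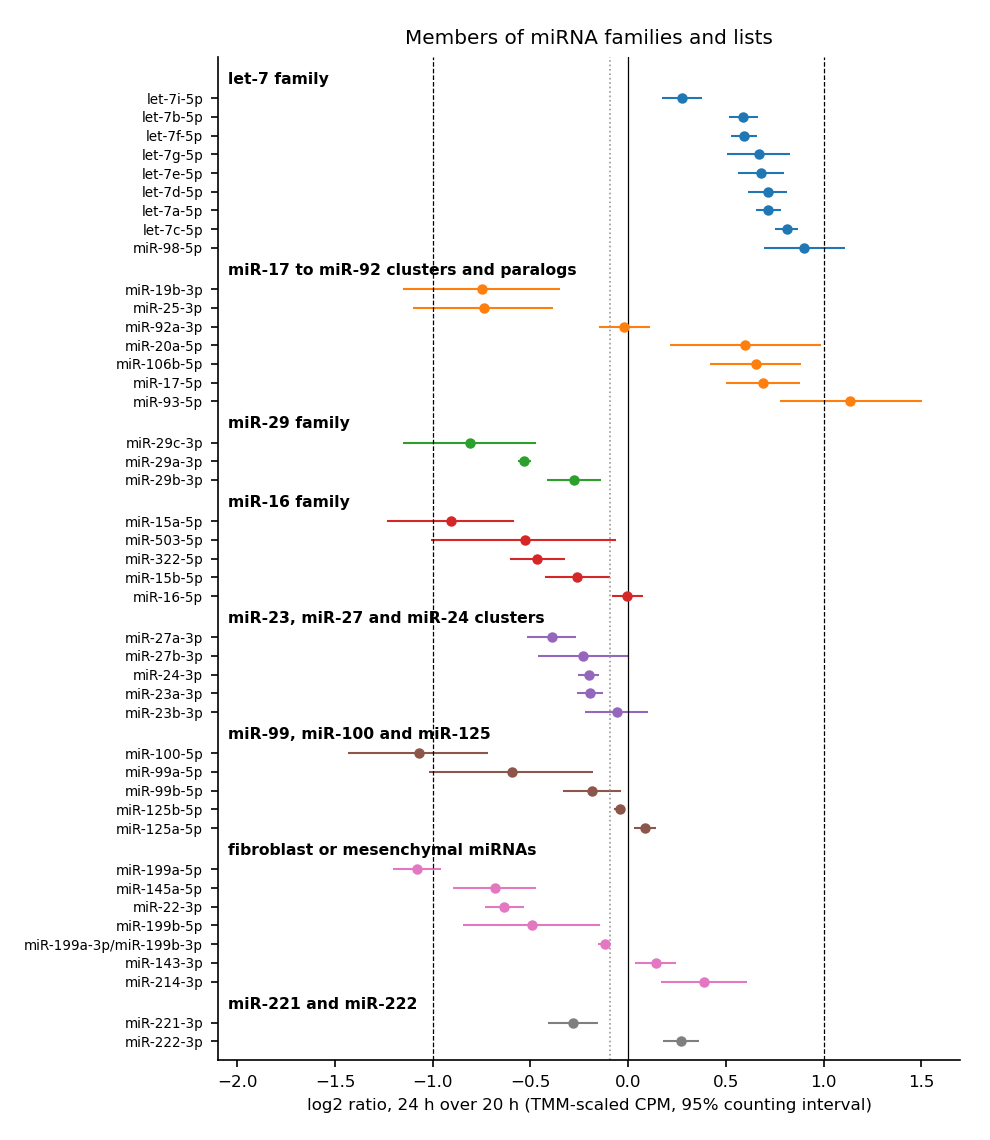
Log2 ratios of TMM-scaled levels, 24 h over 20 h, with 95% counting intervals, for the tested members of 8 families and lists. Dashed lines mark 2-fold and the dotted line the median of all 131 arms, −0.09. All let-7 arms lie to the right of 0 and all miR-29 arms to the left, while the transcripts of miR-17 and miR-106b, and that of miR-221 with miR-222, hold arms on both sides.

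Grouped by seed, with the reads of all arms of a seed summed, arms under the minimum included, 100 families had at least 100 reads in either library, 1 of them with no tested arm. Of these families 4 were at least 2-fold higher and 4 lower (8% together). Of these 8, the family of miR-199a-5p and miR-199b-5p was the only one with more than 1 tested arm, and DESeq2 scaling took it inside 2-fold, at 0.571. In 17 families with at least 2 tested arms, 7 had every interval on 1 side of 1 and 4 held arms on opposite sides, with TMM scaling. With DESeq2 scaling only the let-7 and miR-17 seed families had every interval on 1 side. Grouped by position, with hairpins up to 10000 bp apart taken as 1 cluster, 24 clusters had at least 2 tested arms. With TMM scaling, 9 held arms on opposite sides of 1 while 9 had them on 1 side. Arms with hairpins in more than 1 cluster, such as miR-29b-3p and let-7f-5p, count in each, so these clusters are not all separate.

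The ratio of the 5p to the 3p arm of a hairpin needs no scaling between libraries. Some pairs set an arm against one that other hairpins also give, such as miR-199a-5p and miR-199b-5p, each against the shared miR-199a-3p, or miR-24-2-5p against miR-24-3p. Of 71 pairs of arms with at least 20 reads of each arm, 21 had odds of 5p at least 2-fold apart with an interval excluding 1. At any size, the interval lay above 1, toward 5p at 24 h, in 12 pairs and below 1 in 19. miR-574 was the extreme on 1 side: miR-574-5p had 24 reads at 20 h and 58 at 24 h while miR-574-3p had 139 and 22, so the 5p share of their reads went from 14.7% to 72.5% and the odds ratio was 15.0 (7.57 to 31). The low miR-574-3p level at 24 h was thus not shared by its partner.

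Of the other pairs toward 5p at 24 h, the odds ratio was 10.1 (2.18 to 95.5) for miR-671, 8.30 (2.94 to 28.9) for miR-193b and 6.11 (3.07 to 13.2) for miR-221. miR-34b was similar, with miR-34b-5p at 42 and 41 reads beside miR-34b-3p at 125 and 26, an odds ratio of 4.66 (2.46 to 8.98). On the other side, miR-27a-5p had 40 reads at 20 h and 1 at 24 h beside miR-27a-3p at 1426 and 826, an odds ratio of 0.0432 (0.00107 to 0.256). miR-380-5p went from 32 to 2 reads beside 36 and 36 of miR-380-3p, an odds ratio of 0.0639 (0.00691 to 0.282). miR-9-5p went from 41 to 5 reads beside 44 and 75 of miR-9-3p, an odds ratio of 0.0727 (0.0209 to 0.203). The less abundant arms of these pairs had few reads.

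**Figure D4:**
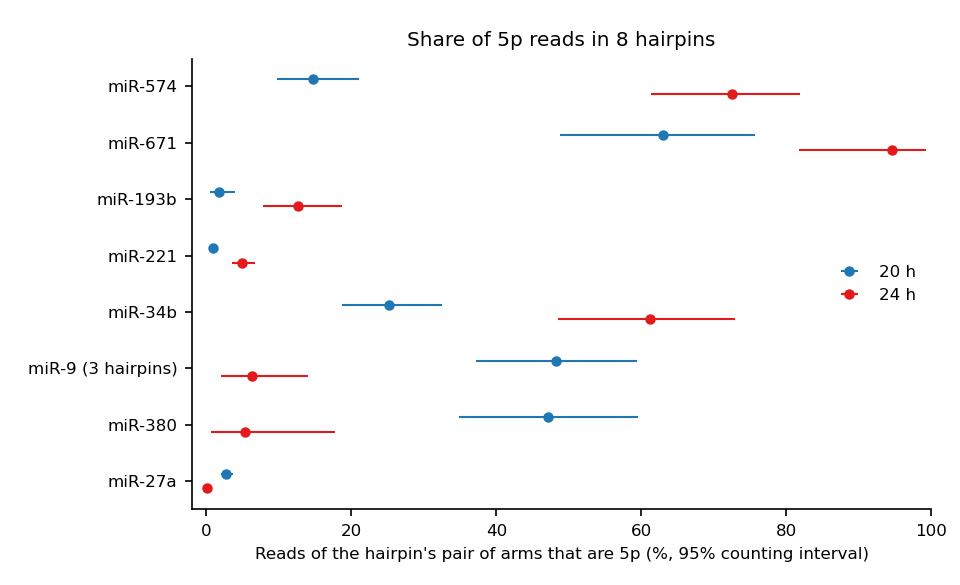
Share of a hairpin's reads that came from its 5p arm, in percent with 95% exact binomial intervals, at 20 h and 24 h for 8 hairpins. The share is higher at 24 h in the upper 5, from 14.7% to 72.5% for miR-574, and lower in the lower 3, from 48.2% to 6.25% for miR-9.

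Differences were more common in arms with few reads. Of 119 arms with 20 to 99 reads in the library that held more, 34.5% were at least 2-fold apart by the same rule, with a median absolute log2 ratio of 0.60. The share was 11.7% of 77 arms with 100 to 499 reads and 3.70% of 54 arms with at least 500, with medians of 0.46 and 0.27. The 2 arms past 2-fold in the deepest class were miR-191-5p and miR-199a-5p. Among the shallow arms 5 had 0 reads at 24 h and 22 to 34 at 20 h: miR-362-3p, miR-483-5p, miR-300-5p, miR-34a-3p and miR-505-5p. With 3 counts as the limit for 0, their level at 24 h was at most 17.8 CPM. They passed the minimum of 20 reads through the 20 h library alone. The 24 h library had fewer miRNA reads (137851 against 184168), so a minimum in reads favours arms high at 20 h. Of the shallow arms past 2-fold, 28 were lower at 24 h and 13 higher. The minimum of 100 reads has the same lean. Among the named arms past 2-fold, miR-574-3p, miR-34b-3p, miR-345-5p, miR-100-5p and miR-369-5p reached it through the 20 h library alone. miR-340-5p and miR-28a-3p reached it through the 24 h library alone.

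Set beside the other pairs of serum libraries, 20 and 24 h were the most alike. At least 2-fold apart were 8.4% of tested arms here. The next smallest shares were 20% between 0 and 16 h and 22.4% between 12 and 20 h. They were 27.1% between 16 and 20 h, 28.7% between 12 and 24 h, 31.8% between 16 and 24 h, 35.6% between 0 and 20 h and 36.1% between 0 and 24 h. The largest were 50.7% between 12 and 16 h and 53% between 0 and 12 h. The pair was also the smallest with at least 500 reads per arm (3.7%, next 5.66%) and with total miRNA reads as the scale (8.4%, next 18.6%). The pairs share libraries and differ in depth, so no test was made between them. The share of marker reads was 94.3%, 93.9% and 94.8% at 12, 20 and 24 h, 62.3% at 0 h and 78.3% at 16 h. With at least 100 reads per arm, 12 and 24 h were further apart (28.7%) than 0 and 16 h (20%). With at least 500 reads, 12 and 24 h were the closer pair, at 5.66% against 11.1%. The part of the marker reads in the likeness of 20 and 24 h was not tested.

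**Figure D5:**
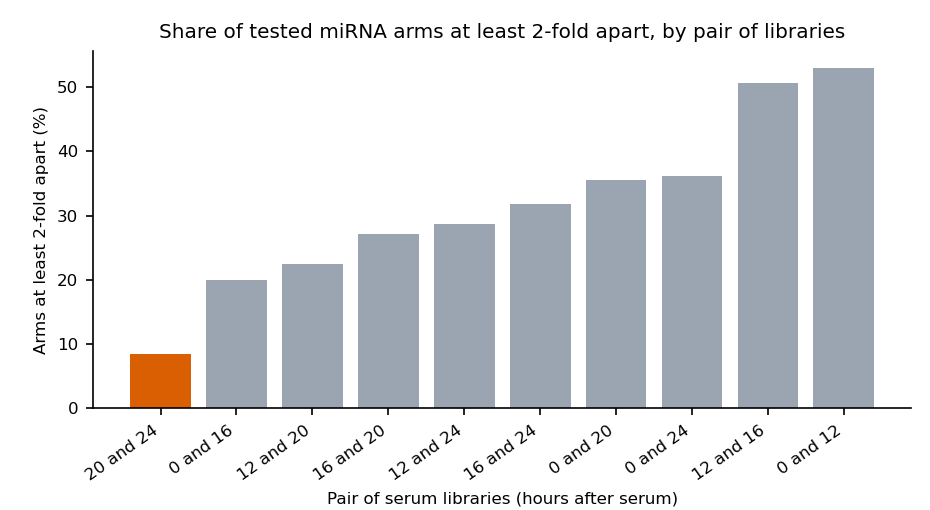
Percent of tested miRNA arms at least 2-fold apart with a counting interval excluding 1, for each of the 10 pairs of the 5 serum libraries, named by hours after serum. The pair of 20 and 24 h, at 8.4%, is the lowest bar, and the others run from 20% to 53%.

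The 3′ ends of miRNAs can carry bases added after cutting by terminal nucleotidyl transferases. In 38 arms with at least 500 reads in both libraries and a known hairpin, reads with an added 3′ base that the hairpin does not hold were a larger share at 24 h in 30 and a smaller one in 8. The median share was 14.2% at 20 h and 18.1% at 24 h. Added A was the larger part, with medians of 5.41%, 4.74%, 7.87%, 7.97% and 10.5% at 0, 12, 16, 20 and 24 h. It was higher at 24 h than at 20 h in 29 of the 38, with intervals that did not overlap in 16, and lower without overlap in 3. Added U was 4.11% and 4.07%, higher in 18 arms and lower in 16. let-7b-5p had the added base in 41.3% of reads at 20 h and 51.1% at 24 h, and in miR-29a-3p it was 4.90% and 5.48%.

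miRNA arms made up 68.6% (68.4 to 68.7) of inserts at 20 h and 66.9% (66.7 to 67.1) at 24 h, and other pieces of miRNA hairpins 6.73% and 6.01%. Inserts with no perfect match to the small-RNA references were 23.7% (23.5 to 23.8) at 20 h and 26.1% (25.9 to 26.3) at 24 h. No genome was used and the references lack nuclear transfer RNAs. Fragments of these, and most of those of ribosomal RNA, therefore fall among the inserts with no match. Fragments of small nucleolar RNAs were 0.593% (0.564 to 0.623) and 0.595% (0.562 to 0.629). Fragments of mitochondrial ribosomal RNA were 0.229% (0.212 to 0.248) and 0.140% (0.125 to 0.157), and those of mitochondrial transfer RNAs 0.0190% (0.0141 to 0.0250) and 0.0451% (0.0364 to 0.0553). By base composition, the median log2 ratio was −0.07 in the 39 arms of low GC content, −0.10 in the 54 of middle and −0.08 in the 38 of high content.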

How the data were processed

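The deposited files hold, per library, distinct 36-nt reads with the adapter and the counts of each, with no normalization. Per the labels' protocols the libraries were made as in an earlier publication. Any aligner, filter or build is not given in the sources used here. Work was done in Python 3.11.15 with scipy 1.17.1, numpy 2.4.6 and pandas 2.3.3. The 3′ adapter was cut off reads that showed 6 or more bases of it (1 mismatch in every 8 tolerated). Inserts sharing 12 bases with, or within 3 edits of, the marker sequences were dropped, and those of 16 to 30 nt kept. An arm's reads were those with its first 20 bases. Of 1723 arms, 1656 came from RefSeq mature sequences. The other 67 came from reads on RefSeq or GENCODE M21 hairpins (GRCm38), on a side without a RefSeq mature sequence. Such a side had at least 10 reads, 50% of them at 1 end. For 30 RefSeq arms the 5′ end most reads had was used. The listed miR-222-5p, miR-378a-3p, miR-133a-3p, miR-150-5p, miR-124-3p, miR-302a-3p and miR-122-5p were not matched.

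Scaling was TMM over all 8 libraries (edgeR 4.0.16, R 4.3.3), with DESeq2 1.42.0 size factors as an alternative. The factors were 1.20 at 20 h and 1.22 at 24 h. Ratios have 95% exact conditional binomial intervals and shares exact Clopper-Pearson ones. A count of 0 was given a limit of 3 counts. Ratios and intervals were tested on simulated data. Named arms were up to 12 counted in each direction, those nearest the 2-fold line, the 10 most abundant, list members a sentence turns on, and up to 4 hairpins each way by 5p to 3p odds, with 0 taken as 3 counts. miR-34b odds, arms at 0 reads and let-7 neighbours were added after their values were seen. The comparison and lists were chosen with earlier results of these data known.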

Additional observations from a re-analysis of the deposited data

How the results depend on the processing

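The count of 11 arms at least 2-fold apart (5 higher, 6 lower at 24 h) stood between 10 and 14 under the other scalings and counting rules. With DESeq2 size factors it was 10, but split 7 and 3. Other limits moved it: 2 (1 and 1) with at least 500 reads, 52 (18 and 34) with at least 20 reads, 4 (2 and 2) at 3-fold and 44 (20 and 24) at 1.5-fold. The share for the pair of 20 and 24 h was 3.7% with at least 500 reads. Hairpins with shifted 5p to 3p odds numbered 21 by either counting rule. Counting whole mature sequences, which also needs the 3′ end, gave 14 arms (5 and 9), 7 of them shared with the 11, and left out miR-345-5p and miR-34b-3p for too few reads. Counting from the RefSeq 5′ end, chosen after seeing the data, gave 11, all shared. No arm past 2-fold changed direction under any setting run. Of 94 arms whose interval excluded 1, 69 kept their side with DESeq2 scaling and 2 took the other; under the other scalings at least 92 kept it and none took the other.

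No paired analysis was possible because each time has 1 library. Depth limits the comparison: 3 counts are 13.5 CPM at 20 h and 17.8 CPM at 24 h, and the spread between cultures was not measured.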
